A study of Mus musculus with 60 samples.

Results

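The comparison described here is the interaction of GFP fraction with gut part in the mouse small intestine, computed as the GFP-high minus GFP-negative difference of the distal part less the same difference of the proximal part. It rests on 16 of the 60 libraries of the series, 4 in each of 4 groups, and on every gene tested. The groups are GFP-high and GFP-negative epithelial cells of the proximal and of the distal small intestine. All came from mice aged 8 weeks, with no treatment named, that carry an Lgr5-2A-eGFP allele, so that eGFP is made with Lgr5 and the GFP-negative cells carry the allele too. The small intestine had been cut into proximal, middle and distal parts of equal length. Crypt cells were dissociated by chelation and TrypLE, and at least 50000 cells per GFP fraction were sorted before polyA RNA sequencing. Strain, sex and the number of mice behind a library are not given in the sources used here. Nothing in the labels says that the 4 replicates are separate animals, so p-values measure the spread between libraries, which may be technical in part. In the main fit that spread was estimated over all 60 libraries, not the 16 alone. The libraries numbered 1 differ from the others in sex-linked genes, as given below, and so came from other mice than those numbered 2 to 4.

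Lgr5 encodes a receptor for R-spondins, secreted amplifiers of Wnt signalling, and marks the stem cells at the base of the crypt. Their daughters divide in the crypt and become absorptive enterocytes or secretory cells (goblet, enteroendocrine, tuft and Paneth cells). The epithelium changes its function along the gut: iron, lipid and drug handling are strong in the duodenum and jejunum, bile acid recovery in the ileum. GFP-high cells are therefore a sample of the crypt base, and GFP-negative cells a mixture of the other epithelium with whatever else passed the gate. In such bulk samples, fewer cells of a type and less RNA per cell cannot be told apart. A positive interaction means that GFP-high cells exceeded GFP-negative cells by more in the distal than in the proximal part. The same number is also the distal minus proximal difference of GFP-high cells less that of GFP-negative cells, so each called gene was also read by the fraction in which it differed between the parts.

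Library totals ran from 58485489 to 93019672 counts (median 74304460), with 18419 to 22963 genes detected. Lgr5 (ENSMUSG00000020140.16) stood at 1.89, 3.38, 3.07 and 2.36 CPM (counts scaled to library size) in the 4 proximal GFP-negative libraries and at 404.6, 283, 280.2 and 282 CPM in the proximal GFP-high ones. It stood at 4.29, 2.31, 2.03 and 3.70 CPM in the distal GFP-negative and at 516, 570.5, 598 and 492 CPM in the distal GFP-high libraries. The sort thus separated the fractions in every library, and the interaction of Lgr5 itself was not called (0.59 ± 0.39, adjusted p = 0.429). Libraries numbered 1 had 403.5 to 2111 CPM of Xist and no count of Ddx3y, and the other libraries at most 1.94 CPM of Xist and 47.7 to 68.2 CPM of Ddx3y. These are the levels of female cells in the libraries numbered 1 and of male cells in the others. Each group holds 1 library of the first kind, so sex and replicate number 1 cannot be told apart. The 28 markers of T and intraepithelial lymphocytes summed to 560.2 to 5109 CPM in proximal and 430.5 to 2012 CPM in distal GFP-negative libraries. In GFP-high libraries they summed to 22.4 to 44.6 CPM proximally and 3.59 to 12.4 CPM distally, where 0 and 1 of the 28 had no count in any library. The 16 B and plasma cell markers summed to 689.5 to 1344 CPM in proximal and 1432 to 4972 CPM in distal GFP-negative libraries, and to at most 24.4 CPM in GFP-high ones. Both lists were on balance negative in the interaction, with medians of -1.83 (2 of 28 positive) and -0.82 (5 of 16), and the T cell median was the farthest from 0 of all lists examined. The part of these cells in the results was not tested. Of the T and the B cell markers edgeR called 0 and 0 in the interaction (5 and 2 at an unadjusted p below 0.05, against 4340 of all 23360 genes). The DESeq2 Wald test called 0 and 1.

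The GFP-high against GFP-negative contrast differed between the ends of the small intestine for 826 of 23360 genes (3.54%) in edgeR's quasi-likelihood test at an adjusted p below 0.05. The interaction was higher for 594 genes (2.54%), with a median size of 0.97 on the log2 scale, and lower for 232 (0.993%), with a median size of 1.38. An additional requirement of at least a 2-fold interaction left 280 higher and 173 lower genes. For 387 of the 826 (1.66% of all genes tested) the differences between any distal GFP-high and any distal GFP-negative library did not overlap with those of the proximal part. By comparison, 11013 genes (47.1%) differed between GFP-high and GFP-negative cells in the proximal and 12137 (52%) in the distal part. A fit of only the 16 libraries called 235 of 19595 genes, 224 of them among the 826, with the same sign. Upper quartile scaling moved the split from 71.9% to 61.8% higher among those called. The count was 526 without proximal GFP-negative replicate 4, and 290, 299, 380 and 1372 without all libraries numbered 1, 2, 3 and 4. In all 30 alternatives run, 77 higher and 29 lower genes were called with the same sign. The 826 calls required no minimum level in each group, so the counts and median sizes include genes at low levels in some groups. Among the calls are fitted interactions of -13.21 (Dpt, called in 23 of the 30 alternatives) and 11.46 (Bmpr1b, in 11). P2ry4 was called as higher at 5.97, but its interaction was -2.32 to -1.27 within the 4 replicate numbers. How many called genes are affected in this way was not tested.

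**Figure D1:**
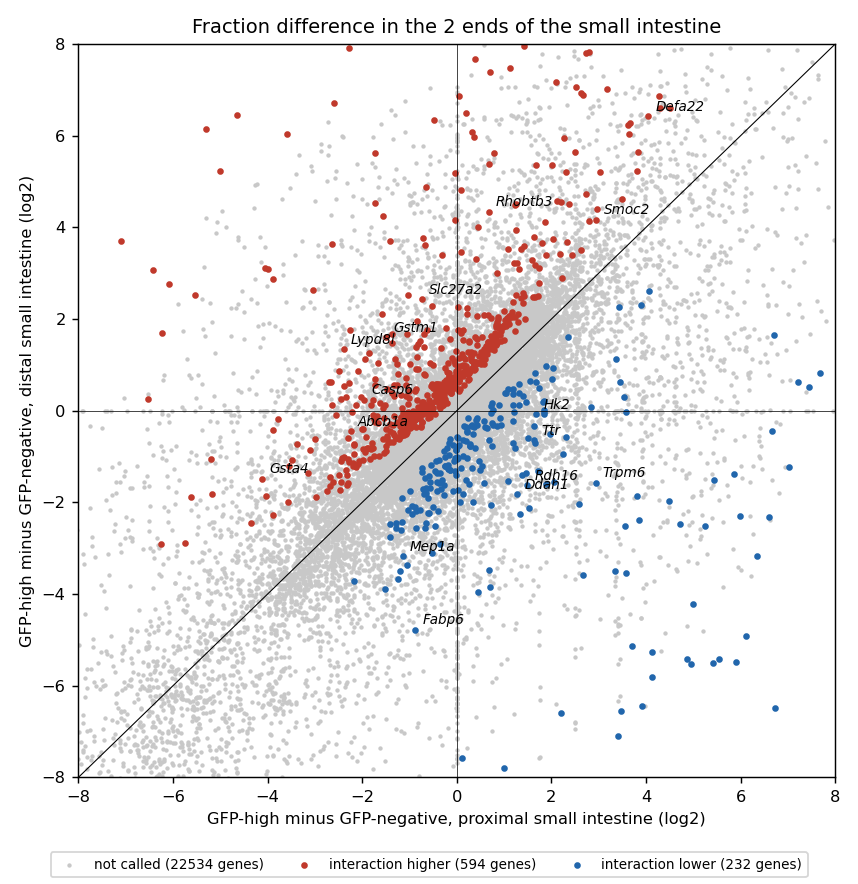
GFP-high minus GFP-negative difference (log2) in the proximal (horizontal axis) and distal (vertical axis) small intestine, 1 point per gene, red for the 594 genes with a called higher interaction, blue for the 232 with a lower one and grey for the rest. The diagonal marks equal differences; called genes lie off it on both sides of 0, and 18 called and 414 other genes beyond ±8 are outside the axes.

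The genes were split by whether distal and proximal cells differed within each fraction. The part difference was called in GFP-negative but not in GFP-high cells for 481 of the 826 genes (346 higher, 135 lower). For 162 genes (121 and 41) it was called in GFP-high but not in GFP-negative cells. It was called in both fractions with the same sign for 100 genes (70 and 30) and with opposite signs for 30 (21 and 9), and in neither for 53. A difference not called in a fraction may still be present there. Over all genes, 3636 (15.6%) were called between the parts in GFP-negative and 2759 (11.8%) in GFP-high cells. The GFP-intermediate fraction, which the interaction does not use, was placed beside these classes. Over all genes, 8.81% were called between the parts in GFP-intermediate cells, 5.25% as higher and 3.56% as lower distally. Of the 121 higher genes with a part difference called in GFP-high cells alone, 61 were also called as higher there and 0 as lower. Of the 41 lower genes of that class, 15 were called as lower there and 0 as higher. Of the 346 higher genes with a part difference called in GFP-negative cells alone, 40 were called as lower there and 2 as higher.

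**Figure D2:**
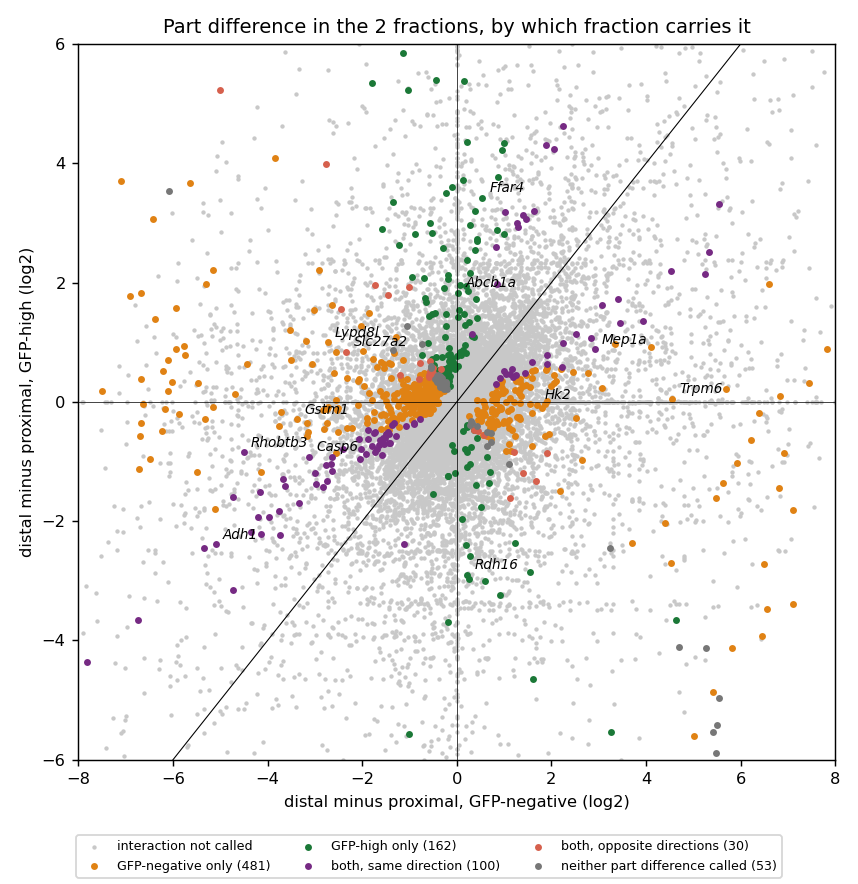
Distal minus proximal difference (log2) in GFP-negative (horizontal axis) and GFP-high cells (vertical axis), 1 point per gene. Colours mark the 5 classes of called genes. The 481 with a part difference called only in GFP-negative cells spread along the horizontal axis. The 162 with one called only in GFP-high cells spread along the vertical axis. Outside the axes lie 20 called and 214 other genes.

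Slc27a2 (ENSMUSG00000027359.17), a very long chain fatty acid transporter and acyl-CoA synthetase, had the smallest p of all genes. Its level was 179.9, 223, 207 and 193 CPM in the proximal GFP-negative libraries and 117, 115, 125 and 124 CPM in the proximal GFP-high ones. In the distal part the GFP-negative libraries held 29.6, 29.5, 66.8 and 32.9 CPM, and the GFP-high libraries 228.5, 207, 213 and 212 CPM. The order of the fractions thus turned over between the parts, with no overlap of libraries in either part. GFP-high minus GFP-negative was -0.74 ± 0.17 proximally, with an adjusted p of 0.000284, and 2.44 ± 0.18 distally, with an adjusted p of 2.61e-16. The interaction was 3.18 ± 0.25 (edgeR adjusted p = 2.98e-13), and 2.39 to 3.74 within the 4 replicate numbers. Slc27a2 rose from proximal to distal in GFP-high cells by 0.84 ± 0.17 (adjusted p = 0.000382) and fell by 2.34 ± 0.18 in GFP-negative cells (adjusted p = 5.26e-15), so it is among the 30 genes whose part differences have opposite signs.

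Such a turn of the fraction difference was seen for 87 genes, called in both parts with opposite signs: 60 were lower in proximal and higher in distal GFP-high cells, and 27 the reverse. Lypd8l (ENSMUSG00000037145.15), a homologue of the secreted antibacterial protein Lypd8 whose reads may be shared with that gene, had 1043 ± 425 CPM in proximal GFP-negative, 199 ± 21.7 in proximal GFP-high, 157 ± 108 in distal GFP-negative and 398 ± 106 in distal GFP-high cells (SD, n = 4). Its interaction was 3.73 ± 0.52 (adjusted p = 2e-06). Pparg, the lipid-sensing nuclear receptor, had 22.1 ± 3.92, 9.16 ± 0.996, 6.34 ± 1.46 and 9.32 ± 3.03 CPM in the same order and an interaction of 1.83 ± 0.28 (adjusted p = 1.7e-05). For both genes the distal minus proximal difference was called in GFP-negative cells (-2.73 ± 0.38 and -1.80 ± 0.20) and not in GFP-high cells (adjusted p = 0.0563 and 0.988).

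The glutathione transferases, which join glutathione to electrophiles and so detoxify drugs and lipid peroxides, had more called members than any of the other gene lists examined. Of 27 members 12 were higher and 0 lower, with a median interaction of 0.64 against 0.036 over all genes. The family was added after its values had been seen. Gstm1 (ENSMUSG00000058135.13) stood at 194, 318, 155 and 245 CPM in proximal GFP-negative and 79.8, 75.9, 83.8 and 83.4 CPM in proximal GFP-high libraries. It stood at 16.2, 20, 20.3 and 31.0 CPM in distal GFP-negative and 69.9, 68.1, 66.2 and 60.5 CPM in distal GFP-high ones. GFP-negative libraries were all above GFP-high ones in the proximal part and all below them in the distal part. The interaction was 3.10 ± 0.26 (adjusted p = 2.48e-12). Gsta4, which acts on the lipid peroxidation product 4-hydroxynonenal, was higher in GFP-negative cells of both parts, with 164 ± 23.7 against 9.42 ± 2.00 CPM in the proximal and 18.5 ± 4.80 against 6.63 ± 1.70 CPM in the distal part. Its interaction was 2.64 ± 0.34 (adjusted p = 3.2e-07). Gstm3 had 676 ± 254 and 79.04 ± 21.8 CPM in proximal and 54.1 ± 20.9 and 29.75 ± 2.52 CPM in distal GFP-negative and GFP-high cells, an interaction of 2.23 ± 0.32 (adjusted p = 3.17e-06). The other called mu-class members were Gstm2, Gstm4, Gstm6 and Gstm7, with interactions of 1.61 to 1.94. The mu genes are near-identical neighbours, and how the deposited counts divide reads among them is uncertain. Gstt1, Gstz1, Gstp3 and Gsto1 had interactions of 1.48, 0.64, 1.22 and 0.49, that of Gsto1 called in 6 of the 30 alternatives.

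Gsta3 (ENSMUSG00000025934.16) had 3.22, 8.58, 9.13 and 8.12 CPM in proximal GFP-negative and 0.525, 1.14, 2.00 and 1.49 CPM in proximal GFP-high libraries. Distally the GFP-negative libraries had 3.16, 5.79, 4.97 and 6.28 CPM, and the GFP-high libraries 10.1, 10.8, 9.32 and 6.55 CPM. The distal GFP-high libraries all lay above the proximal ones, by 2.83 ± 0.37 (adjusted p = 6.86e-08), and the difference in GFP-negative cells was not called (-0.52 ± 0.34, adjusted p = 0.336). The GFP-negative libraries overlapped between the parts through proximal replicate 1 alone, since the other 3 proximal libraries lay above every distal one. Its interaction of 3.35 ± 0.49 (adjusted p = 6.84e-06) thus came with a called part difference in the GFP-high cells. That of Gstm1 came with one in the GFP-negative cells, where the distal minus proximal difference was -3.38 ± 0.20 (adjusted p = 1.74e-19) against -0.29 ± 0.18 (adjusted p = 0.316) in GFP-high cells.

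The windows around the RefSeq start sites of these genes (250 bases before to 50 after, build GRCm38.p6, given 5′ to 3′ on the gene's strand) were searched on both strands for 3 motifs. They were the site of GATA factors (AGATAA and AGATAG, or the same letters with a leading T, TGATAA as well as TGATAG), the core of the antioxidant response element (TGACNNNGC), which is the site of the stress regulator Nrf2, and a site of the nuclear receptor Hnf4a (CAAAGTCCA). Each motif was counted separately, whether or not it overlapped another. Of the 27 family members 24 had a window, some with several start sites, which gave 34 windows. Shown are 3 windows: Gsta3 at chr1:21240335-21240634 (plus strand), which holds a GATA and an antioxidant match, Gstm2 at chr3:107986371-107986670 (minus strand), which holds a GATA match, and Gstm1 at chr3:108017924-108018223 (minus strand), the member with the smallest p, which holds none. Capitals mark the matches.
Gsta3: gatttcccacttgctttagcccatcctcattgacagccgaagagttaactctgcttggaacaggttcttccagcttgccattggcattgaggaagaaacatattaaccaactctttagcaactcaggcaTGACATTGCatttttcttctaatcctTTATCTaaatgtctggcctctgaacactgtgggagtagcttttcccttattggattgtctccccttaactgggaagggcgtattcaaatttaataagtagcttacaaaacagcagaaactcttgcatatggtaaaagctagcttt
Gstm2: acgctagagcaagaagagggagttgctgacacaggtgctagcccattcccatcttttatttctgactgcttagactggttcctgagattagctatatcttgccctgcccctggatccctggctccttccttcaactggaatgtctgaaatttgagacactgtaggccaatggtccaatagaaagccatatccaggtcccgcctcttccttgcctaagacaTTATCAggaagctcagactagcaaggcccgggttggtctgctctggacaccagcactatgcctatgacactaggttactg
Gstm1: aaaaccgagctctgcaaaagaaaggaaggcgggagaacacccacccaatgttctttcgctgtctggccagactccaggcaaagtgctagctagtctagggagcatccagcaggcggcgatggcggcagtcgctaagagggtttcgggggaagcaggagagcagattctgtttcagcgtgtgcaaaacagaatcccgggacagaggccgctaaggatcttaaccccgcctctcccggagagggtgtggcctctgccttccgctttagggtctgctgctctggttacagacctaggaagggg
The GATA site was in 29.41% of the family's 34 windows, 21.67% of 600 windows of genes called higher, 17.01% of 241 windows of genes called lower and 21.69% of the 17954 windows of all genes tested. The antioxidant element was in 11.76%, 16.17%, 15.35% and 13.94% of these, and the Hnf4a site in 0%, 0.5%, 0% and 0.52%. A match is a run of letters and no measure of binding.

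Other enzymes of drug and retinoid metabolism were also called. Of 41 tested genes of the xenobiotic list 5 were higher and 0 lower (median 0.23), 3 of them glutathione transferases. Adh1 (ENSMUSG00000074207.11), which oxidises ethanol and retinol, had 613, 582, 427 and 509 CPM in proximal GFP-negative and 174, 158, 178 and 163.5 CPM in proximal GFP-high libraries. It had 16.4, 13.3, 17.6 and 14.9 CPM in distal GFP-negative and 39.97, 28.7, 42.4 and 17.2 CPM in distal GFP-high ones. It fell distally in both fractions, by 5.10 ± 0.27 in GFP-negative and by 2.39 ± 0.24 in GFP-high cells, and the interaction was 2.71 ± 0.33 (adjusted p = 9.84e-08). Carboxylesterases (Ces1g, Ces2g, Ces1d) were higher for 3 of 15, UDP-glucuronosyltransferases (Ugt2b35, Ugt1a7c, Ugt1a9) for 3 of 13 and retinol and alcohol dehydrogenases for 4 of 27, with 1 lower (2 in the fit blocked on the replicate number). These 3 families were also chosen after their values had been seen. Ces1g was at 12.3 ± 2.98, 3.41 ± 0.8288, 2.02 ± 1.08 and 4.80 ± 0.919 CPM in proximal GFP-negative and GFP-high and distal GFP-negative and GFP-high cells (interaction 3.10 ± 0.41, adjusted p = 1.01e-06). Rdh16, a retinol dehydrogenase, was the lower member. GFP-high cells had 26.7, 13.0, 14.96 and 20.6 CPM in the proximal and 2.02, 1.76, 2.31 and 4.00 CPM in the distal part. GFP-negative cells had 6.70 ± 1.81 and 7.76 ± 1.44 CPM, and the interaction was -3.11 ± 0.43 (adjusted p = 1.82e-06). Rdh1, a related enzyme, went the other way. It stood at 2.00, 1.96, 1.33 and 3.00 CPM in proximal and at 32.03, 26.2, 26.9 and 27.9 CPM in distal GFP-high libraries, while no GFP-negative library of either part passed 1.11 CPM (interaction 2.90 ± 0.58, adjusted p = 0.00121).

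Abcb1a (ENSMUSG00000040584.9), the drug efflux pump P-glycoprotein of the apical membrane, was the called xenobiotic gene in which the GFP-high cells differed and the GFP-negative cells did not. GFP-high libraries held 45.7, 52.4, 61.2 and 52.4 CPM in the proximal and 175, 166, 256 and 156.5 CPM in the distal part, while GFP-negative libraries held 209, 322, 213 and 258 against 298, 198, 271 and 257 CPM. The distal GFP-high libraries exceeded the proximal ones by 1.83 ± 0.16 (adjusted p = 3.12e-12), and the GFP-negative libraries overlapped between the parts (0.03 ± 0.16, adjusted p = 0.955). The interaction was 1.80 ± 0.23 (adjusted p = 2.17e-07), and GFP-intermediate cells rose distally by 1.09 (adjusted p = 9.36e-07).

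**Figure D3:**
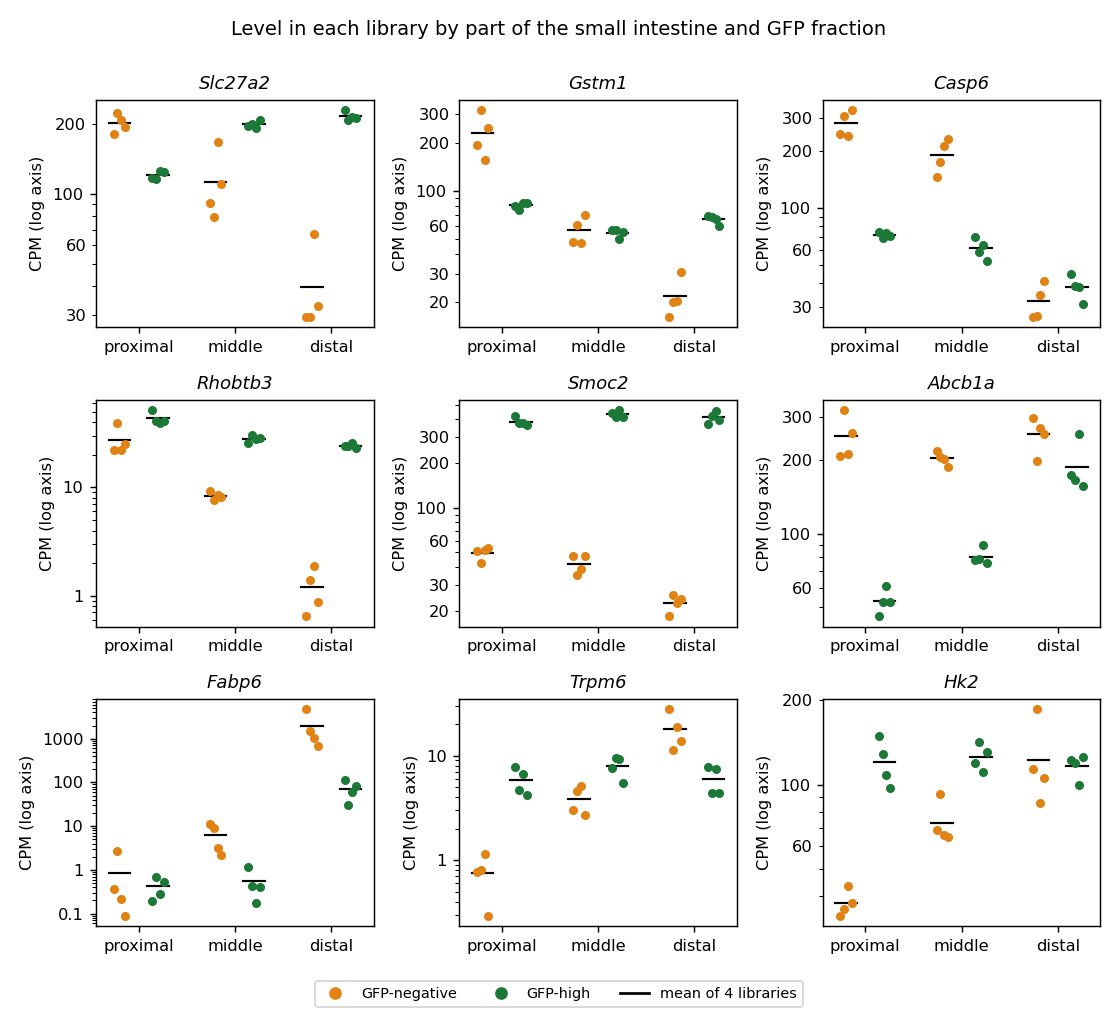
Level (CPM, log axis) of 9 genes in each GFP-negative (orange) and GFP-high (green) library from the 3 parts of the small intestine, with the mean of 4 libraries as a bar. Slc27a2, Gstm1 and Casp6 fall distally in GFP-negative cells, Abcb1a rises in GFP-high cells, and Trpm6 and Hk2 rise in GFP-negative cells.

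Caspases are cysteine proteases that carry out apoptosis or process inflammatory cytokines, a family chosen after its values had been seen. Casp6 (ENSMUSG00000027997.10), an effector caspase, had 248, 310, 242 and 330 CPM in proximal GFP-negative and 74.8, 69.5, 73.6 and 70.98 CPM in proximal GFP-high libraries. In the distal part the fractions overlapped, with 26.5, 26.8, 34.8 and 41.3 CPM in GFP-negative libraries against 44.5, 38.9, 38.1 and 31.1 CPM in GFP-high ones (0.24 ± 0.13, adjusted p = 0.128). The interaction was 2.20 ± 0.19 (adjusted p = 3.89e-12). Casp6 thus fell from proximal to distal GFP-negative cells by 3.13 ± 0.14, and by less in GFP-high cells (-0.92 ± 0.13, adjusted p = 8.08e-07). Casp1, the inflammasome caspase, had an interaction of 0.72 ± 0.18 (adjusted p = 0.0118) that was not called without distal GFP-high replicate 1 (adjusted p = 0.0532) or in the fit of only the 16 libraries (adjusted p = 0.122). Casp2, Casp8 and Casp9 had interactions of 0.54, 0.17 and -0.07, none of them called. Gsdme, a pore-forming gasdermin, named after its values were seen, was lower. It had 19.8 and 15.8 CPM in proximal and 113 and 34.75 CPM in distal GFP-negative and GFP-high cells (means, interaction -1.38 ± 0.21, adjusted p = 2.04e-05).

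Of the 36 regional transcription factors 3 were higher and 1 lower (median -0.23). Gata6 (ENSMUSG00000005836.11), a GATA factor of the intestinal epithelium, overlapped between the fractions of the proximal part, at 111, 163, 146 and 152 CPM in GFP-negative libraries and 142, 132, 137 and 144 CPM in GFP-high ones. In the distal part GFP-negative libraries held 70.9, 83.1, 84.2 and 53.9 CPM and GFP-high ones 147, 148, 160.2 and 138 CPM, with no overlap. The interaction was 1.07 ± 0.18 (adjusted p = 6.33e-05). Gata4, its relative that is known to specify the proximal intestine, fell distally in both fractions, by 3.12 ± 0.43 in GFP-high and by 1.79 ± 0.41 in GFP-negative cells, and its interaction was not called (-1.33 ± 0.57, adjusted p = 0.185). A call was made by the newer quasi-likelihood method, at an adjusted p of 0.0379, and in the fit of the small intestinal libraries, at 0.0437. The interaction was negative in all 4 replicate numbers (-2.89 to -0.53). Esrrg, an orphan nuclear receptor of oxidative metabolism, had 13.5 ± 3.87, 90.5 ± 9.48, 2.39 ± 0.301 and 63.8 ± 7.53 CPM in proximal GFP-negative and GFP-high and distal GFP-negative and GFP-high cells (interaction 2.00 ± 0.39, adjusted p = 0.000706). Hnf4a, the nuclear receptor of enterocyte identity, was lower by a small step (-0.62 ± 0.16, adjusted p = 0.0158), a call lost without distal GFP-negative replicate 2 (adjusted p = 0.0502) and in the fit of only the 16 libraries (adjusted p = 0.0826). Of 30 Hox genes 0 were called by edgeR (4 at an unadjusted p below 0.05, against 4340 of all 23360 genes) and 0 by the DESeq2 Wald test. Between the parts 14 of them differed in GFP-high cells and 16 in the GFP-negative ones. Many lay at the floor, as 16 had no count in any proximal GFP-negative library. A further group count was 12 in proximal GFP-high, 12 in distal GFP-negative and 12 in distal GFP-high libraries. All 30 summed to 1.452 to 6.475 CPM in proximal GFP-negative libraries, so the lack of a call says little about them.

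Outside the list, Prdm16 and Rhobtb3 were among the genes with the smallest p. Prdm16, a transcriptional regulator of fatty acid oxidation, had 60.9, 73.05, 62.55 and 58.7 CPM in proximal GFP-negative and 85.6, 67.7, 73.2 and 69.2 CPM in proximal GFP-high libraries. It was far lower in the distal part, more so in GFP-negative cells (3.48, 3.77, 5.48 and 3.64 CPM) than in GFP-high cells (17.5, 20.4, 19.4 and 20.4 CPM). The interaction was 2.03 ± 0.21 (adjusted p = 1.13e-09). Rhobtb3 (ENSMUSG00000021589.14) had 22.1, 39.3, 22.3 and 25.5 CPM in proximal GFP-negative and 52.2, 40.8, 39.5 and 41.4 CPM in proximal GFP-high libraries. In the distal part it was at 0.641, 1.40, 1.87 and 0.874 CPM in GFP-negative libraries and 23.9, 24.1, 25.8 and 23.0 CPM in GFP-high ones (interaction 3.67 ± 0.33, adjusted p = 3.06e-11). Foxq1, a forkhead factor, had 12.03 and 7.67 CPM in proximal and 0.128 and 3.96 CPM in distal GFP-negative and GFP-high cells (means). Its fractions overlapped in the proximal part (-0.65 ± 0.46, adjusted p = 0.263), and in the distal part GFP-high libraries lay above GFP-negative ones without overlap. Ahr, the receptor for dietary and xenobiotic ligands, named after its values were seen, had 30.5, 25.65, 13.7 and 26.3 CPM in the same order (means, interaction 1.19 ± 0.23, adjusted p = 0.000614).

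Among 26 crypt base stem cell genes, only Smoc2 was called in the fit of all 60 libraries, and 17 were positive (median 0.33). Over all genes 3.54% were called and 51.9% were positive, so 1 call in 26 is near the share of all genes. Smoc2 (ENSMUSG00000023886.11), a secreted matrix protein of crypt base cells, was alike in GFP-high cells of both parts, with 416, 373, 376 and 364 CPM in the proximal and 372.5, 419, 454 and 393 CPM in the distal libraries (0.10 ± 0.13, adjusted p = 0.708). In GFP-negative cells it was at 51.0, 42.5, 51.6 and 53.2 CPM in the proximal and 18.4, 25.8, 22.6 and 24.3 CPM in the distal libraries, which did not overlap. The interaction was 1.22 ± 0.19 (adjusted p = 2.4e-05). The 26 genes together summed to 1104 to 1326 CPM in proximal and 765.1 to 1095 CPM in distal GFP-negative libraries, and to 16750 to 18890 and 19450 to 21030 CPM in GFP-high ones. Olfm4, which encodes a glycoprotein secreted at the crypt base, had 373, 351.9, 453.9 and 514.7 CPM in proximal and 145.9, 136.3, 184.3 and 200.4 CPM in distal GFP-negative libraries, against 9881 to 11080 and 12790 to 13470 CPM in GFP-high ones. Neither fraction overlapped between the parts, and the interaction was 1.56 to 1.80 within the 4 replicate numbers. It was not called in the fit of all libraries (1.70 ± 1.01, adjusted p = 0.376), but was in the fit of only the 16 libraries (adjusted p = 0.000517) and in that of the small intestinal libraries (adjusted p = 0.000739). Nox1, the NADPH oxidase of the gut epithelium, stood at 2.17, 6.97, 0.532 and 10.4 CPM in proximal and 86.3, 94.07, 62.25 and 91.3 CPM in distal GFP-high libraries. In GFP-negative libraries it stood at 0.615, 1.28, 0.309 and 2.63 CPM proximally and at 2.64, 5.45, 3.97 and 4.55 CPM distally. Its interaction of 2.27 ± 0.78 was not called (adjusted p = 0.0878). A fit blocked on the replicate number called it (adjusted p = 0.0163), as did the DESeq2 Wald test (adjusted p = 0.0314). Without proximal GFP-negative replicate 4 it was 1.51 (adjusted p = 0.38). Of 28 S phase genes 1 was called, again near the share of all genes (2 in the fit blocked on the replicate number). Positive were 25 of them (median 0.45). Of 26 mitosis genes 0 were called by edgeR (10 at an unadjusted p below 0.05, against 4340 of all 23360 genes) and 24 were positive (median 0.57). The DESeq2 Wald test called 0 of them.

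Paneth cells are antimicrobial secretory cells that sit between the stem cells. Of 25 alpha-defensins 5 were higher and 0 lower (median 1.599), and of 20 other Paneth genes 3 were higher and 0 lower (median 0.69). Defa28, Defa36, Defa29, Defa22 and Defa34 were called in 27, 19, 15, 13 and 7 of the 30 alternatives. Mptx2, Clps and Dll3 were called in 10, 28 and 26. Dll3, at 6.05, had -0.98 to 0.85 within the 4 replicate numbers. It was not called in the fit of only the 16 libraries (adjusted p = 0.15). Defa22 stood at 83.5, 129.8, 131 and 87.3 CPM in proximal and 2701, 3378, 1776 and 2736 CPM in distal GFP-high libraries. Its GFP-negative levels were 6.68, 7.91, 5.42 and 6.20 CPM in the proximal and 45.1, 33.4, 15.7 and 29.5 CPM in the distal libraries. Both fractions thus rose distally with no overlap, GFP-high cells by 4.62 ± 0.56 and GFP-negative cells by 2.24 ± 0.51, and the interaction was 2.38 ± 0.69 (adjusted p = 0.0413). This call was lost when any of 11 libraries was left out and by the DESeq2 Wald test (adjusted p = 0.203). Defensin genes are near-identical copies, so the division of reads among them is uncertain. Mptx2, a Paneth cell pentraxin, had an interaction of 2.11 ± 0.62 (adjusted p = 0.0429), likewise lost without any of 12 libraries, and Lyz1, the Paneth lysozyme, 1.91 ± 0.58 (adjusted p = 0.0528). It was called in the fit blocked on the replicate number (adjusted p = 0.0439) and in that of only the 16 libraries (adjusted p = 0.0261). Clps, a colipase placed in the Paneth list, fell distally in GFP-negative cells, from 23.56 ± 7.755 to 3.363 ± 0.8924 CPM, and stood at 109 ± 27 and 79.56 ± 19.3 CPM in GFP-high cells (interaction 2.35 ± 0.57, adjusted p = 0.00955). The 25 defensins summed to 5513 to 12190 CPM in proximal and 8135 to 15960 CPM in distal GFP-high libraries. In GFP-negative libraries they summed to 260.3 to 1075 CPM proximally and 225.9 to 491.8 CPM distally. Defa22 did not stand for its list in GFP-negative cells. The median distal minus proximal difference of the 25 was -0.96 in GFP-negative and 0.29 in GFP-high cells. Of 27 tuft and 24 goblet cell genes 0 were called by edgeR, with medians of -0.23 and -0.05. At an unadjusted p below 0.05 were 2 and 2 of them, against 4340 of all 23360 genes. By the DESeq2 Wald test 1 tuft gene was lower.

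**Figure D4:**
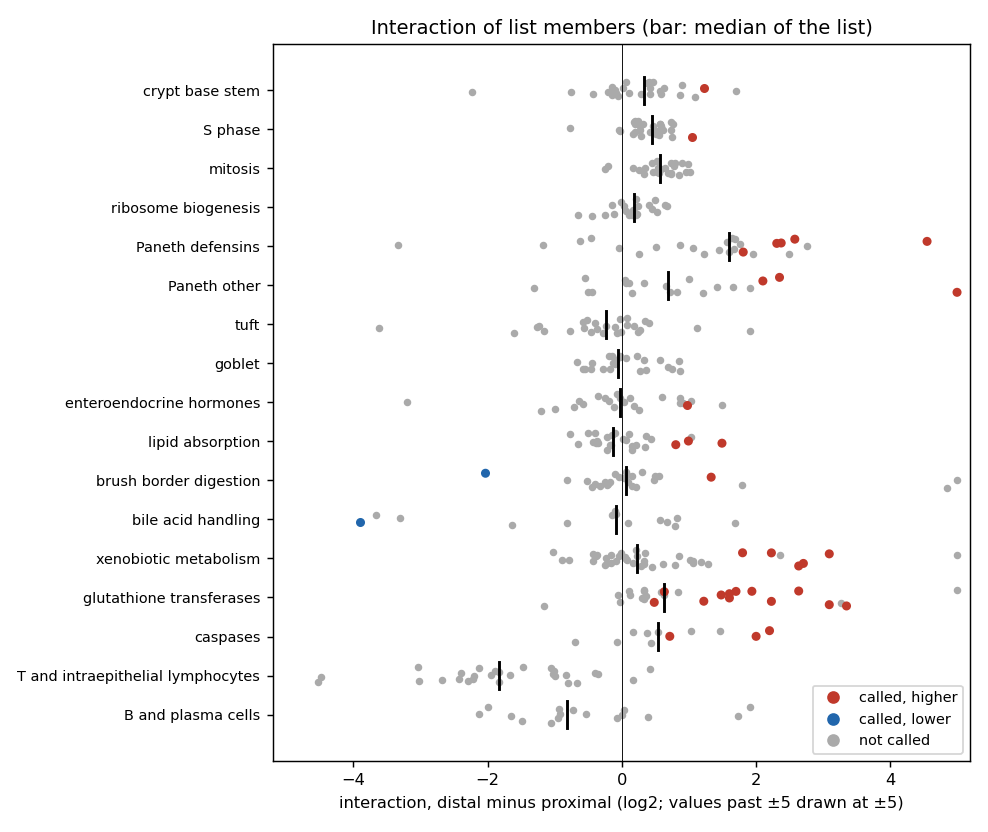
Interaction (log2, horizontal axis) of the members of 17 gene lists, 1 point per gene, red or blue where called and grey where not, with the list's median as a bar. The glutathione transferases hold 12 called higher members, the defensins 5, and the T lymphocyte list none, and values past ±5 are drawn at ±5.

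Ffar4, a receptor for long chain fatty acids, stood at 0.952, 1.40, 1.57 and 0.863 CPM in proximal and 9.96, 13.5, 13.1 and 14.8 CPM in distal GFP-high libraries. The GFP-negative libraries held 6.804, 5.06, 7.09 and 4.25 CPM in the proximal and 7.25, 10.8, 6.84 and 8.77 CPM in the distal part. The interaction of 2.89 ± 0.37 (adjusted p = 2.9e-07) was thus carried by the GFP-high cells. Sulf2, an extracellular sulfatase of heparan sulfate, also rose distally in GFP-high cells, with 14.0 ± 3.85 CPM in the proximal and 46.9 ± 5.84 CPM in the distal part. Unlike Ffar4 it had a lower mean in distal GFP-negative cells, 98.4 ± 14.7 CPM against 157 ± 40.8 CPM proximally (interaction 2.42 ± 0.39, adjusted p = 3.65e-05). Of 28 lipid absorption genes 3 were higher and 0 lower (Acsl5 0.99, Plin2 0.81, Scarb1 1.495; median -0.12), none of them in the fit of only the 16 libraries. Mgam, the brush border maltase, was higher (1.33 ± 0.33, adjusted p = 0.0118), but 0.81 (adjusted p = 0.0869) without proximal GFP-negative replicate 2, which stood at 5945 CPM against 1862 to 2624 CPM in the other 3.

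Of 21 iron and calcium genes 2 were higher and 1, Trpm6, was lower (median 0.30). Fth1, the ferritin heavy chain that stores iron, had 4350, 4808, 2965 and 3533 CPM in proximal GFP-negative libraries and 1057, 1014, 1148 and 1025 CPM in proximal GFP-high ones. In the distal part the levels were 1332, 967.4, 1021 and 1183 CPM against 647.1, 632.8, 637.4 and 631.5 CPM. GFP-negative libraries lay above GFP-high ones in both parts, by less in the distal one, and the interaction was 1.06 ± 0.22 (adjusted p = 0.00148). Cybrd1, the ferric reductase of the duodenal brush border, was at 2.73, 6.99, 7.41 and 3.55 CPM in proximal and 0.321, 0.228, 0.230 and 0.787 CPM in distal GFP-negative libraries, which did not overlap. GFP-high cells held 7.07 ± 2.05 and 6.31 ± 2.27 CPM. Its interaction of 3.56 ± 1.04 (adjusted p = 0.0391) passed the threshold in 15 of the 30 alternatives, and leaving out any of 11 single libraries ended the call. Reg1, a secreted lectin of the mucosa, had 1163, 1254, 1124 and 713.5 CPM in proximal GFP-negative and 55.4, 47.96, 122 and 64.3 CPM in proximal GFP-high libraries. Both distal fractions held at most 5.44 CPM and overlapped, and the interaction was 3.46 ± 0.83 (adjusted p = 0.00888).

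Among the 232 lower genes, Trpm6 (ENSMUSG00000024727.10), the magnesium channel, stood at 0.779, 0.804, 1.15 and 0.293 CPM in proximal and 27.7, 11.4, 18.7 and 13.9 CPM in distal GFP-negative libraries. GFP-high libraries held 7.75, 4.70, 6.63 and 4.18 CPM proximally and 7.801, 4.40, 7.48 and 4.40 CPM distally. GFP-high cells thus lay above GFP-negative cells in the proximal part and below them in the distal part, with no overlap in either part. The interaction was -4.51 ± 0.55 (adjusted p = 1.1e-07). Hk2, the hexokinase that opens glycolysis, was at 33.8, 35.8, 43.4 and 37.7 CPM in proximal GFP-negative libraries against 149, 128.6, 108 and 96.8 CPM in proximal GFP-high ones. It was at 113, 186, 85.6 and 106 CPM against 122, 119, 100 and 125 CPM in the distal part. Only the proximal GFP-negative libraries stood apart, and the interaction was -1.75 ± 0.23 (adjusted p = 4.72e-07). Ddah1, which degrades the nitric oxide synthase inhibitor dimethylarginine, had 1.83 ± 0.432 and 4.43 ± 1.10 CPM in proximal and 69.6 ± 20.35 and 19.6 ± 2.90 CPM in distal GFP-negative and GFP-high cells (interaction -3.10 ± 0.32, adjusted p = 2.11e-09). Map3k6, a stress-activated kinase, had 4.96 ± 1.53, 3.88 ± 0.732, 75.5 ± 16.3 and 9.997 ± 1.79 CPM in the same order (interaction -2.56 ± 0.31, adjusted p = 1.1e-07). Ttr, the thyroid hormone and retinol carrier transthyretin, differed in the GFP-high cells, which had 17.9 ± 3.18 CPM in the proximal and 5.29 ± 1.09 CPM in the distal part (interaction -2.27 ± 0.32, adjusted p = 3.34e-06).

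P2ry2, a receptor for extracellular ATP and UTP, was also lower. Its distal GFP-negative libraries, at 25.97, 27, 18.7 and 18.8 CPM, stood above the proximal ones at 4.17, 10.5, 5.03 and 3.18 CPM, and GFP-high cells had 3.15 ± 0.432 and 3.81 ± 0.402 CPM (interaction -1.71 ± 0.41, adjusted p = 0.00932). Of 10 claudins, the tight junction proteins, 1 was lower and 0 higher (median -0.47). That was Cldn8, which had 0.671 ± 0.319 and 2.17 ± 0.877 CPM in proximal and 6.92 ± 2.59 and 4.23 ± 2.13 CPM in distal GFP-negative and GFP-high cells (interaction -2.37 ± 0.50, adjusted p = 0.00209), a call not made in the fit of only the 16 libraries (adjusted p = 0.105).

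Fabp6, the ileal bile acid binding protein, was the called gene of 14 bile acid genes (0 higher, 1 lower, median -0.09). It stood at 0.36, 2.69, 0.215 and 0.088 CPM in proximal GFP-negative and 0.197, 0.685, 0.28 and 0.52 CPM in proximal GFP-high libraries. Distal GFP-negative libraries held 4689, 1476, 1020.0 and 679.9 CPM, and distal GFP-high libraries 112, 30.1, 59.5 and 84.9 CPM. It was near 0 throughout the proximal part and far higher in both distal fractions, where GFP-negative cells exceeded GFP-high cells without overlap. The interaction of -3.90 ± 1.12 (adjusted p = 0.0372) was -3.00 (adjusted p = 0.13) without distal GFP-negative replicate 1. The call was lost when any of 8 libraries, that one included, was left out, and was not made in the fit of only the 16 libraries (adjusted p = 0.126). Mep1a, a brush border metalloprotease, had 85.8 ± 29.9 and 38.9 ± 6.31 CPM in proximal and 646 ± 188 and 71.7 ± 20.9 CPM in distal GFP-negative and GFP-high cells, an interaction of -2.03 ± 0.42 (adjusted p = 0.00184). Of 16 BMP pathway and Id genes, which read out a signal that rises toward the villus, 2 were lower and 0 higher (median -0.45). One was Smad6 at -1.15, called in 11 of the 30 alternatives and lost without any of 12 libraries. Its interaction was -1.76 to 0.13 within the 4 replicate numbers. Id1, a BMP target, had 72.2, 85.04, 64.3 and 51.3 CPM in proximal and 127, 129.6, 106.5 and 62.9 CPM in distal GFP-negative libraries. In GFP-high ones it had 52.9, 65.2, 48.7 and 54.1 CPM proximally against 29.0, 37.9, 36.6 and 45.9 CPM distally (interaction -1.21 ± 0.32, adjusted p = 0.0199). Distal GFP-negative replicate 4 was the lowest distal value of Id1 there, and the call was kept without that library. The call was lost without any of 4 other libraries.

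Over all genes tested, 3.54% were called, and 4340 of 23360 had an unadjusted p below 0.05. With 3.54% called, a list of 12 to 30 genes may well hold 0 or 1 calls, so neither count is a result about the list. Several lists held no called gene in edgeR. They were 21 Wnt feedback and ligand genes (7 at an unadjusted p below 0.05; 2 higher and 1 lower by the DESeq2 Wald test), 17 Notch pathway genes (3; 0 by DESeq2), 24 cholesterol synthesis genes (8; 2 lower by DESeq2), 22 ribosome biogenesis genes (6; 1 higher by DESeq2), 12 MHC class II genes (0; 0 by DESeq2) and 30 interferon response genes (4; 0 by DESeq2). Their medians ran from -0.23 for cholesterol synthesis to 0.25 for the Notch pathway. Of 37 oxidative phosphorylation genes only Atp5c1, a subunit of ATP synthase, was called, at 0.40 ± 0.12 (adjusted p = 0.0381), a call lost without any of 10 libraries.

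The middle part, whose GFP-high and GFP-negative libraries are not in the contrast, was compared with both ends. Its fraction difference lay between those of the proximal and distal parts for 778 of the 826 genes (94.2%). These genes were called for the distance between their ends, so that share is a description and no support for a graded change. Toward the distal end, in the direction of each gene's interaction, the median step was 0.50 from proximal to middle and 0.56 from middle to distal. Single steps were called for 23 genes (0.0985%) from proximal to middle, or 38 with the replicate number as a block, and 73 (0.312%) from middle to distal, with 20 and 63 of the 826 among them. Slc27a2 changed by 1.57 (adjusted p = 0.000285) and 1.61 (adjusted p = 7.58e-05) in the successive steps. Casp6 changed by 0.33 (adjusted p = 0.545) and 1.88 (adjusted p = 3.18e-09), Adh1 by 0.16 (adjusted p = 0.934) and 2.55 (adjusted p = 2.11e-06), and Map3k6 by -2.30 (adjusted p = 3.66e-05) and -0.27 (adjusted p = 0.913). The steps share the middle libraries, and the difference between the steps of a gene was not tested.

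**Figure D5:**
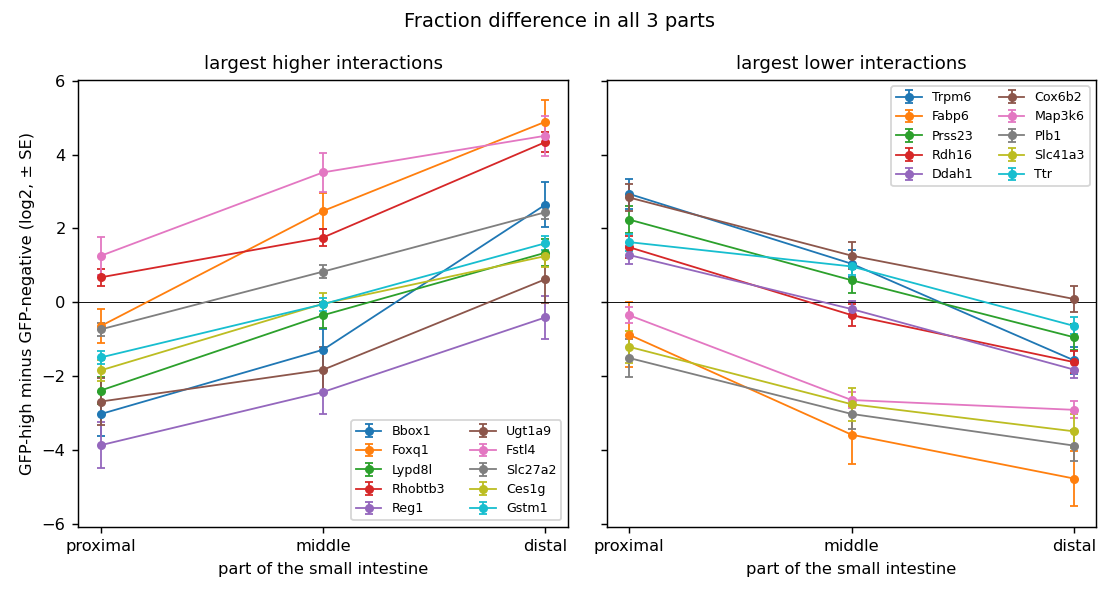
GFP-high minus GFP-negative difference (log2, ± SE of the fit) in the proximal, middle and distal part for the 10 genes with the largest higher (left) and lower (right) interaction among called genes with no overlap between the parts, at least 10 CPM in some group and at least 12 counts in each group. Since genes with distant ends were drawn, a middle value between them is a description. Slc27a2 passes from -0.74 through 0.83 to 2.44.

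In the colon the same interaction of fraction with part was called for 144 genes (0.616%). The lists shared 10 genes, 1.21% of the small intestinal and 6.94% of the colonic one. The sign was the same for 5 (Ckb, Ddc, Acox2, Ambp and Gm6083) and opposite for 5 (Asap1, Esrrg, Car12, Myorg and Fgfbp1). Ddc, the enzyme that makes serotonin and dopamine from their precursors, had interactions of 0.97 in the small intestine and 1.30 in the colon, and Esrrg 2.00 and -1.59.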

How the data were processed

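Gene counts came from the table of whole, unnormalised counts per gene and library deposited by the authors, who, per the submitters' processing notes, used STAR, Subread featureCounts and edgeR with the mm10 build; versions, strandedness and the gene annotation release are not given in the sources used here. All 60 libraries (15 groups of 4) entered a single model with a mean per group in edgeR 4.0.16 (R 4.3.3), with TMM scaling, edgeR's default filter on low counts, the quasi-likelihood test (45 residual and 5.43 prior degrees of freedom) and Benjamini-Hochberg adjustment over the 23360 genes kept. Calls are adjusted p-values under 0.05. Values after ± are standard errors of a log2 difference or, after a mean, SDs of 4 libraries. CPM are counts scaled to the TMM-normalised library size. Overlap was judged on the range of all 16 GFP-high minus GFP-negative differences of log2(CPM + 0.5) per part.

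Named genes are Lgr5, Nox1, the called genes without overlap, with at least 10 CPM in some group and the largest interactions, by class, and the list members with the smallest p; further genes are named as chosen after their values were seen. The members and lists were chosen with earlier results of these data known. The replicate number equals the deposited batch number in 60 of 60 libraries and so was taken to mark a pairing of the samples. The main fit did not use this pairing, which entered only as the block among the alternatives. Residuals of same-numbered libraries correlated on average at 0.20 between the proximal fractions and 0.063 between the distal ones. The averages were 0.32 between GFP-high and 0.47 between GFP-negative cells of both parts. Between the distal fractions the values were uneven, at 0.0085, 0.22, 0.51 and -0.48 for numbers 1 to 4. In each group pair these replicate libraries differed by a chi-square per gene of at least 31.6, so none was counted as a repeat. On simulated counts of 22798 genes, the test called 24% of 50 genes with a 1.5-fold, 74% of 50 with a 2-fold and 96% of 50 with a 4-fold interaction. The changed genes all had a mean of at least 10 CPM over the 4 groups, so these rates do not cover genes at lower levels. The simulated libraries were independent, without the pairing by replicate number. Alternatives used DESeq2 1.42.0, other scalings, filters, library sets and the block. Promoter windows are from RefSeq. A few genes are not reported here.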

Additional observations from a re-analysis of the deposited data

Results flagged for a closer look

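The interaction itself is a difference between the parts under the same contrast, and it was called for 826 genes, of which 87 had fraction differences called in both parts with opposite signs. Within groups of 4 libraries, 1 library stood apart from the other 3 by Dixon's criterion (a gap to the nearest of the others above the 95% critical share of the group's range) in 13 of 144 combinations of 36 described genes with the 4 groups (9.03%, where chance gives about 1 in 20). Of these 10 were in GFP-negative and 3 in GFP-high groups.

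Lgr5 was at 404.6 CPM in proximal GFP-high replicate 1, against 280.2 to 283.1 CPM in the other 3 libraries. Rhobtb3 was at 52.18 CPM in the same library, against 39.53 to 41.4 CPM. Casp1 was high in both distal fractions of replicate 1, at 279 CPM in GFP-negative (others 204.2 to 216.8) and 185 CPM in GFP-high cells (others 139.1 to 146.9). Mep1a was at 925.3 CPM in distal GFP-negative replicate 1, against 520 to 581.9 CPM. Lypd8l was high in replicate 4 of both GFP-negative groups, at 1677 CPM in the proximal (others 797.6 to 899) and 318.8 CPM in the distal part (others 86.51 to 112). Gstm3 was at 85.42 CPM in distal GFP-negative replicate 4, against 42.66 to 45.56 CPM. Slc27a2 at 66.84 CPM (others 29.51 to 32.9) and Prdm16 at 5.479 CPM (others 3.478 to 3.772) were high in distal GFP-negative replicate 3. Gsta4 was low in proximal GFP-negative replicate 3, at 128.4 CPM against 174.1 to 177 CPM. Gsta3 was low in proximal GFP-negative replicate 1, at 3.222 CPM against 8.124 to 9.126 CPM. Fabp6 was at 2.688 CPM in proximal GFP-negative replicate 2, against 0.08799 to 0.3597 CPM.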

How the results depend on the processing

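With the replicate number as a block for the pairing, 1009 genes were called (730 higher), 812 of them among the 826 and with the same sign. The block added the calls of Nox1 and Lyz1, changed no other call of a gene picked for naming, and gave 38 against 23 genes for the middle minus proximal step. DESeq2 size factors gave 782 genes, upper quartile scaling 751, the newer quasi-likelihood method 820 and the small intestinal libraries alone 836. The count moved further without a filter on low counts (531, 351 higher), with the DESeq2 Wald test (1306, 422 lower), in the fit of the 4 groups alone (235, 163 higher and 72 lower) and with a fold of at least 2 (453, 280 higher). Leaving out 1 of the 16 libraries gave 526 to 1162 genes, 381 to 808 higher and 139 to 354 lower. The low total and the 381 came without proximal GFP-negative replicate 4, which left 145 lower genes. The lower count was 139 and 141 without distal GFP-high replicates 1 and 2 and 354 without distal GFP-negative replicate 4. Leaving out all libraries of number 1, 2, 3 or 4 gave 290, 299, 380 and 1372 genes, with 188, 221, 260 and 800 higher and 102, 78, 120 and 572 lower. Without proximal GFP-negative replicate 1 and distal GFP-negative replicate 4 together, an alternative chosen after seeing the data, the count was 1511 (995 higher, 516 lower, 692 shared with the 826).

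For the fraction difference, a fold of at least 2 left 6805 genes (proximal) and 7827 (distal), and single libraries left out gave 10145 to 11217 and 11271 to 12351. For the part difference that fold left 1372 genes in GFP-high, 1861 in GFP-negative and 1280 in GFP-intermediate cells, and the fit of the 4 groups alone called 1581 and 2279. Single libraries left out gave 1566 (without distal GFP-high replicate 1) to 3012, 3066 to 3628 and 1977 to 2131. Without number 1, 2 or 3 the GFP-high count was 1186, 1274 and 1439, and without number 2 the GFP-intermediate one was 1234. The middle minus proximal interaction gave 14 genes without a filter, 139 by the DESeq2 Wald test and 13 in the small intestinal libraries. It gave 9, 10 and 11 without proximal GFP-high replicates 1, 3 and 4, 76 without proximal GFP-negative replicate 2, and 7, 12, 15 and 293 without numbers 1 to 4. The distal minus middle one gave 197 by DESeq2, 59 to 116 without single libraries (116 without distal GFP-negative replicate 2) and 44, 30 and 36 without numbers 2, 3 and 4. That of the colon gave 275 by DESeq2, 127 to 152 without single libraries and 71, 74, 35 and 85 without numbers 1 to 4. Of 2520 recomputed calls of genes picked for naming 2169 were kept, 351 lost and 0 changed sign. The cause of these changes was not tested. The 4 libraries a group limit what could be called.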
